A study of Mus musculus with 27 samples.

Results

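Co-stimulatory and checkpoint molecules are the proteins through which a myeloid cell tells a T cell whether to respond to the antigen it is shown. The transcripts of 10 such genes were followed in 3 myeloid populations, the monocytes, macrophages and cDC1s of inflamed colon, in WT and *Mbd2*-/- mice: *Cd40*, *Cd80*, *Cd86*, *Cd274*, *Pdcd1lg2*, *Icosl*, *Havcr2*, *Lgals9*, *Tnfsf9* and *Cd83*. Members were found by an exact match of the array's gene symbol, with no use of measured values. This gave 20 of the 45281 probes on the array, for 10 of its 30869 symbols.

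*Cd80* and *Cd86* encode the classical B7 ligands, which bind CD28 on naive T cells and also the inhibitory receptor CTLA-4. *Cd274* encodes PD-L1 and *Pdcd1lg2* encodes PD-L2, the ligands of the inhibitory receptor PD-1. *Icosl* encodes the ligand of ICOS. *Havcr2* encodes TIM-3, an inhibitory receptor that is also carried by dendritic cells, and *Lgals9* encodes galectin-9, a lectin that binds it. *Cd40* encodes the receptor through which CD4 T cells activate antigen presenting cells, *Tnfsf9* encodes a TNF family ligand for activated T cells, and *Cd83* encodes a surface marker of mature dendritic cells. Mbd2 binds methylated CpG sites in DNA and recruits repressor complexes to them.

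All mice received 2% DSS, a salt that damages the colon epithelium, in drinking water, so every comparison was made within inflamed tissue and no untreated colon was measured. *Mbd2*-/- mice lacked the gene in the whole body, on a C57BL/6 background, and WT mice were littermates co-housed where possible and matched for age and sex; the labels give no age for single samples. Cells were sorted as Ly6C+ monocytes, F4/80+ MHC-II+ macrophages and CD103+ CD11b- dendritic cells, called CD11bnegDC in the labels and cDC1s by the study. Of 25 arrays, monocytes had 5 WT and 5 *Mbd2*-/-, macrophages 5 and 5, and cDC1s 2 and 3, each from RNA of 1 or more pooled mice. The labels do not say which cell types came from the same mice, so p-values measure the spread between these arrays.

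The arrays had a mean raw intensity of 172 to 353 units, and 16024 to 18608 probes were detected on each at a detection p under 0.05. The *Mbd2*-/- cDC1 arrays were the dimmest, at 172 to 228 units against 265 and 292 for WT cDC1s. The genotype labels could not be checked on the deleted gene, whose probe was above background on 0 arrays. Marker genes followed the cell type labels, with summed log2 levels of cDC1 markers at 13.93 to 14.15 on cDC1 arrays and at most 11.67 elsewhere, although the *Ccr2* and *Flt3* probes were mostly not detected. Of the epithelial markers *Epcam* was mostly not detected, while the others, such as *Krt8* and *Muc2*, were detected in all 6 groups. The summed log2 level of the epithelial list was 12.12 to 14.04. The part of epithelial transcripts in the results was not tested. In sorted pools, fewer cells with a transcript and less transcript in each cell cannot be told apart.

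Mbd2 reads methylated CpG, so the CpG content before a transcript start of the members is shown here, although methylation was not measured. Of the 10 genes, 6 had an entry in a RefSeq promoter table of build GRCm38.p6. The 250 bases before the start given there held 2 CG for *Havcr2*, 3 each for *Cd80*, *Lgals9* and *Pdcd1lg2*, 11 for *Cd274* and 23 for *Icosl*, against a median of 6 over all 32851 entries, of which 92.1% held at least 1. For *Cd274* and *Cd80* that start lies inside the gene as RefSeq annotates it, past the annotated gene start (29362107 for *Cd274* and 38457430 for *Cd80*), while for the other 4 genes it is the gene start. The sequences of the genes with the clearest genotype differences, *Pdcd1lg2* and *Havcr2*, are printed with that of *Cd274*, which lies beside *Pdcd1lg2* on the same chromosome. All 3 are 5′ to 3′ on the plus strand, and capitals mark CG.
Pdcd1lg2, chr19:29410669-29410918: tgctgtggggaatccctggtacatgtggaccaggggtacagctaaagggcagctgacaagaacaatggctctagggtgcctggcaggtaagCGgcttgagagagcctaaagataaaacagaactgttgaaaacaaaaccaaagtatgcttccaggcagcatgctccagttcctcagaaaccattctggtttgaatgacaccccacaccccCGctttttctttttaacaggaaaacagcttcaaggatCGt
Cd274, chr19:29367188-29367437: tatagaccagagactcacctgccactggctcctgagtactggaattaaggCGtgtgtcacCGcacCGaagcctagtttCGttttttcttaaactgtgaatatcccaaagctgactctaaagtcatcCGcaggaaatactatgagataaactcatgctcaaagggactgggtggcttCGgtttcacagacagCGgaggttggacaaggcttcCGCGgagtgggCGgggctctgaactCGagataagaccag
Havcr2, chr11:46454681-46454930: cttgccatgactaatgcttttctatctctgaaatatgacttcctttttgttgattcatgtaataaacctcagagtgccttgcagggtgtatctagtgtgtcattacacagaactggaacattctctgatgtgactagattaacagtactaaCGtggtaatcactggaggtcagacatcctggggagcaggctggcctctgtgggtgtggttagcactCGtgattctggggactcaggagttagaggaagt
*Pdcd1lg2* and *Havcr2* thus had fewer CG than the median entry, and the stretch inside *Cd274* had more.

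Genotype differences were tested for 18 of the 20 probes, covering all 10 genes. The second *Icosl* probe, ILMN_1235456, was detected on no array, and the third *Lgals9* probe, ILMN_2778043, on only 9 of 25. A probe passed at an adjusted p under 0.05 (limma, Benjamini-Hochberg over all probes tested). In monocytes 2 member probes were higher in *Mbd2*-/- cells and 0 lower, where 0.871% of all 16190 probes tested were higher and 0.982% lower. In macrophages 2 were higher and 1 lower, against 3.15% and 2.71% of all probes, and in cDC1s 0 were higher and 2 lower, against 3.45% and 3.27%. At an unadjusted p under 0.05 in limma monocytes had 9 of the 18 member probes, macrophages 6 and cDC1s 5, against 14.1%, 23.9% and 24.2% of all probes. The median log2 difference over the 18 probes was 0.47 in monocytes, 0.20 in macrophages and -0.26 in cDC1s, and over all probes tested it was -0.02, -0.07 and 0.03. The list was chosen with results of these data known, so these medians describe it and test nothing.

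**Figure D1:**
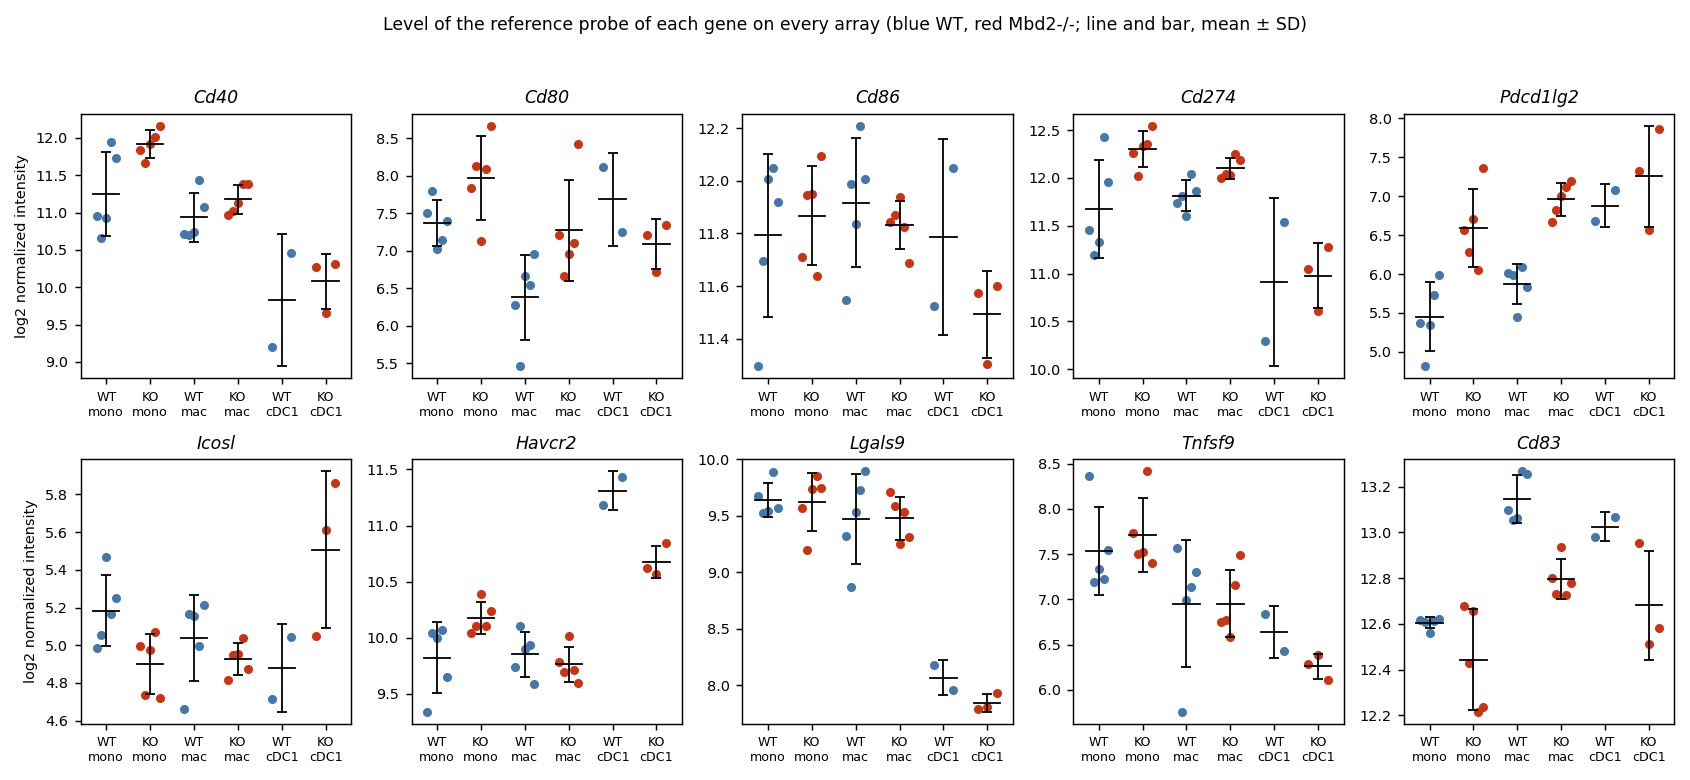
Log2 normalized intensity of the reference probe of each gene (its brightest tested probe) on every array, by cell type and genotype. Points are arrays, lines and bars are the mean ± SD, and each panel has its own axis, since levels of different probes cannot be compared. *Pdcd1lg2* is higher in *Mbd2*-/- than in WT monocytes and macrophages with no overlap, and *Havcr2* is highest in WT cDC1s.

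*Pdcd1lg2*, the PD-L2 gene, rose in *Mbd2*-/- cells of both monocytes and macrophages, by about the same amount. In WT monocytes its log2 level was 5.38, 4.82, 5.34, 5.73 and 5.98 on arrays 1 to 5, and in *Mbd2*-/- monocytes 6.56, 6.29, 6.71, 6.05 and 7.36 on arrays 6 to 10. Every *Mbd2*-/- monocyte array lay above every WT array, if narrowly for the nearest pair. The log2 difference was 1.14 (SE 0.24, 95% interval 0.64 to 1.64), a 2.21-fold rise, with an adjusted p of 0.0127 in limma. In WT macrophages the log2 level was 6.02, 5.99, 5.45, 6.09 and 5.83 on arrays 11 to 15, and in *Mbd2*-/- macrophages 6.67, 6.82, 7.00, 7.11 and 7.19 on arrays 16 to 20. These groups did not overlap either, and the *Mbd2*-/- arrays lay close together. The log2 difference was 1.08 (SE 0.24, 95% interval 0.58 to 1.59), a 2.12-fold rise, with an adjusted p of 0.0149 in limma.

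In cDC1s *Pdcd1lg2* stood at a log2 level of 6.68 and 7.08 on the WT arrays and 7.33, 6.57 and 7.87 on the *Mbd2*-/- arrays, which overlap. The log2 difference of 0.37 did not pass (adjusted p = 0.553 in limma), and its 95% interval, which starts at -0.35, holds both no change and the macrophage estimate of 1.08. The genotype effect in cDC1s minus that in monocytes was -0.77 (95% interval -1.65 to 0.11, adjusted p = 0.345 in limma), so a difference between these cell types was not shown.

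The *Pdcd1lg2* probe was dim. Its raw intensity lay 17.1 to 180 units above the median of the negative controls of the same array and it was detected on all 25 arrays. Each value rests on 24 to 58 beads. The size of the rise depends on how background is removed: with no background correction the log2 difference was 0.54 in monocytes and 0.58 in macrophages, and both still passed. Under median scaling the log2 differences were 0.96 in monocytes and 1.11 in macrophages, and neither passed (adjusted p = 0.119 and 0.0587 in limma). Leaving out WT array 2 or *Mbd2*-/- array 10 raised the monocyte adjusted p above the threshold, to at most 0.0569 in limma, while the macrophage result passed without each of the 25 arrays in turn. In macrophages the cDC2 marker sum also differed between genotypes without overlap, at a log2 level of 10.38 to 10.78 in WT and 10.79 to 11.64 in *Mbd2*-/- arrays. Of its 3 genes tested only *Clec10a* passed, with a rise of 0.76 (adjusted p = 0.0389 in limma). *Cd209a*, at -0.71, and *Itgam*, at 0.83, did not pass (adjusted p = 0.147 and 0.189). The mean log2 level of the cDC2 list in macrophages overlapped, at 6.98 to 7.62 in WT and 7.29 to 8.34 in *Mbd2*-/- arrays. Of 5 monocyte markers tested there 2 rose, *Ly6c1* by 0.91 and *Plac8* by 0.45 (adjusted p = 0.0471 and 0.0377), although their summed levels overlapped. The part of these markers in the rise of *Pdcd1lg2* was not tested.

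*Cd274*, the PD-L1 gene, is the neighbour of *Pdcd1lg2* and encodes the other PD-1 ligand. Its log2 level in WT monocytes was 11.46, 11.19, 11.33, 12.43 and 11.95 on arrays 1 to 5, and in *Mbd2*-/- monocytes 12.26, 12.02, 12.34, 12.36 and 12.55. WT arrays other than array 4 were below every *Mbd2*-/- array, array 5 only narrowly, and array 4 lay among them. The log2 difference of 0.63 (95% interval 0.19 to 1.07) did not pass (adjusted p = 0.141 in limma). It was 0.71 with array weights and 0.82 without WT array 4, and passed in both settings (adjusted p = 0.0151 and 0.0246 in limma). In macrophages the log2 levels were 11.61 to 12.04 in WT and 12.00 to 12.25 in *Mbd2*-/- arrays, with a log2 difference of 0.29 (adjusted p = 0.423 in limma). In cDC1s the 2 WT arrays, at 10.29 and 11.54, enclosed the 3 *Mbd2*-/- arrays at 10.61 to 11.28.

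**Figure D2:**
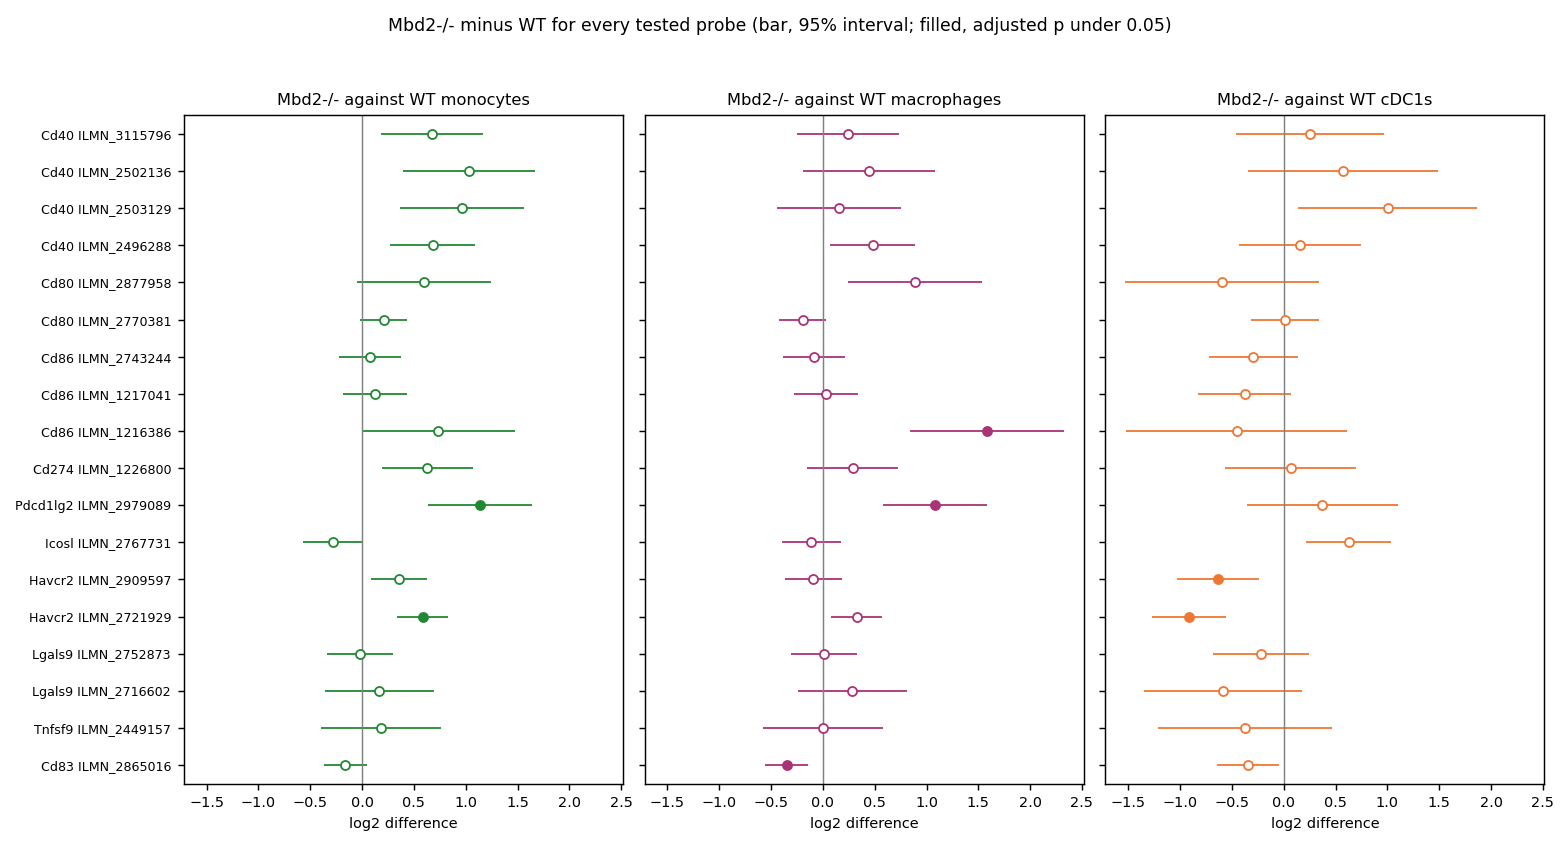
Log2 difference between *Mbd2*-/- and WT cells for each of the 18 tested probes, in monocytes, macrophages and cDC1s. Points are estimates, bars are 95% intervals, and filled points have an adjusted p under 0.05. Right of 0 lie 15 of the 18 points in monocytes, 13 in macrophages and 8 in cDC1s. Probes of the same gene are not independent points.

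*Havcr2*, the TIM-3 gene, went in opposite directions in cDC1s and monocytes. Its 2 probes rose and fell together over the 25 arrays (Pearson r = 0.905). On probe ILMN_2721929 the WT cDC1 arrays stood at a log2 level of 11.49 and 11.74 and the *Mbd2*-/- cDC1 arrays at 10.83, 10.55 and 10.72. On probe ILMN_2909597 they stood at 11.19 and 11.43 against 10.62, 10.57 and 10.84. Both probes were lower on all 3 *Mbd2*-/- arrays. The log2 difference was -0.91 on the first (SE 0.17, 95% interval -1.27 to -0.56, adjusted p = 0.00487 in limma) and -0.63 on the second (SE 0.19, 95% interval -1.03 to -0.24, adjusted p = 0.0474 in limma).

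In monocytes ILMN_2721929 stood at a log2 level of 9.25, 9.50, 9.59, 9.90 and 9.77 on the WT arrays and 10.09, 10.27, 10.32, 9.98 and 10.27 on the *Mbd2*-/- arrays. The groups did not overlap, and the rise of 0.58 on the log2 scale passed (SE 0.12, adjusted p = 0.0101 in limma). On ILMN_2909597 the groups overlapped and the log2 difference of 0.36 did not pass (adjusted p = 0.192 in limma). Under median scaling the monocyte difference of ILMN_2721929 was 0.27 and did not pass (adjusted p = 0.429 in limma). In macrophages neither probe passed, at 0.33 and -0.09.

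The difference between cell types was tested itself. The genotype effect in cDC1s minus that in monocytes was -1.50 for ILMN_2721929 (SE 0.21, adjusted p = 0.00155 in limma) and -0.99 for ILMN_2909597 (SE 0.23, adjusted p = 0.0379). In that contrast 1.12% of all probes passed in either direction. Under median scaling they were -1.62 and -1.13 and did not pass (adjusted p = 0.133 and 0.397). ILMN_2909597 also lost this call under cyclic loess, with no filter on dim probes and with array weights (adjusted p = 0.0538, 0.0561 and 0.189 in limma). In cDC1s minus macrophages the difference of genotype effects was -1.24 for ILMN_2721929 (SE 0.21, adjusted p = 0.00311) and -0.54 for ILMN_2909597 (adjusted p = 0.139), where 8.79% of all probes passed. In macrophages minus monocytes 0 of the 18 member probes passed in limma, against 0.0287% of all probes, and 2 had an unadjusted p under 0.05, against 7.32% of all probes.

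With only 2 WT cDC1 arrays the cDC1 result rests on few pools. ILMN_2721929 passed without each of the 25 arrays in turn, at a log2 difference of -1.04 to -0.79, but not with array weights or with cDC1s normalized and fitted alone, where the log2 difference was -0.91 and -0.92 (adjusted p = 0.0767 and 0.355). ILMN_2909597 lost its call without 17 of the 25 arrays. The summed log2 level of macrophage markers was 10.14 and 10.15 on the WT cDC1 arrays and 10.41 to 11.52 on the *Mbd2*-/- ones, and the T cell marker sum was 9.30 and 11.38 against 8.69 to 11.12. The part of these markers, and of the dimmer *Mbd2*-/- arrays, in the fall of *Havcr2* was not tested.

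*Lgals9*, the galectin-9 gene, did not pass in any cell type by genotype. Its brightest probe, ILMN_2752873, differed by -0.02 in monocytes, 0.01 in macrophages and -0.22 in cDC1s on the log2 scale, with 95% intervals of -0.34 to 0.30, -0.31 to 0.33 and -0.69 to 0.24.

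Of the B7 ligands, *Cd86* gave different answers by probe. Its 2 bright probes, ILMN_2743244 and ILMN_1217041, followed each other over the arrays (r = 0.898), and in macrophages they differed between genotypes by only -0.08 and 0.03 on the log2 scale (adjusted p = 0.758 and 0.917 in limma). The third probe, ILMN_1216386, barely followed them (r = 0.166 and 0.178). On it the WT macrophage arrays stood at a log2 level of 7.30, 6.19, 7.79, 7.65 and 8.33 and the *Mbd2*-/- arrays at 8.47, 7.90, 9.45, 9.33 and 10.01. Array 17, an *Mbd2*-/- array, lay inside the WT range, and the log2 difference was 1.58 (SE 0.36, 95% interval 0.84 to 2.32, adjusted p = 0.015 in limma). The call was lost without WT array 12 (adjusted p up to 0.0536 in limma) or *Mbd2*-/- array 20, the macrophage arrays with the lowest correlation to the rest of their group over all probes (r = 0.965 and 0.966), and with macrophages normalized and fitted alone (adjusted p = 0.125).

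On ILMN_1216386 the genotype effect in cDC1s minus that in macrophages was -2.04 (SE 0.63, adjusted p = 0.0454 in limma), and this call was lost without 17 of the 25 arrays. No probe sequence was at hand to say which *Cd86* transcript each probe reads, so a change in *Cd86* as a whole was not shown.

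*Cd80* also had probes that did not follow each other (r = 0.006). Its bright probe, ILMN_2877958, stood at a log2 level of 5.46 to 6.96 in WT and 6.67 to 8.42 in *Mbd2*-/- macrophages, and the log2 difference of 0.89 did not pass (95% interval 0.24 to 1.54, adjusted p = 0.0863 in limma). The dim probe, ILMN_2770381, differed by -0.20 there and did not pass.

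*Icosl* was dim, 7.4 to 32.6 raw units above the negative control median. After normalization the WT cDC1 arrays stood at a log2 level of 4.72 and 5.05 and the *Mbd2*-/- arrays at 5.05, 5.61 and 5.86, a log2 difference of 0.63 that did not pass (adjusted p = 0.0578 in limma). Before normalization the arrays overlapped and leaned the other way, with raw intensities of 18.0 and 19.0 units above the negative controls in WT and 13.7, 14.4 and 18.1 in *Mbd2*-/- cDC1s. The part of the lower brightness of the *Mbd2*-/- arrays in the normalized difference was not tested.

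*Cd40* stood out in monocytes by how its arrays divided. Its reference probe, ILMN_3115796, was at a log2 level of 10.95, 10.66, 10.93, 11.95 and 11.73 on WT arrays 1 to 5 and 11.83, 11.67, 11.92, 12.02 and 12.16 on *Mbd2*-/- arrays 6 to 10. WT arrays 1 to 3 lay well below, and WT arrays 4 and 5 lay among the *Mbd2*-/- arrays. The log2 differences of the 4 *Cd40* probes were 0.68, 1.04, 0.97 and 0.68, with adjusted p-values of 0.0804 to 0.160 in limma, so none passed in the main fit. With array weights all 4 passed (adjusted p = 0.00527 to 0.0224 in limma). Without WT array 4, ILMN_2502136, ILMN_2503129 and ILMN_2496288 passed (adjusted p = 0.0220 to 0.0423) and the reference probe did not. *Cd40* and *Cd274* were the most similar pair of members over the 25 arrays (r = 0.935, with the cell types and both genotypes pooled).

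The division followed the position of the arrays in the deposited table. The signal columns were split here, in their order, into sets of 6 neighbours, a split that the column headers do not mark. In these sets WT arrays 1 to 3 stand beside *Mbd2*-/- arrays 9 and 10, and WT arrays 4 and 5 beside *Mbd2*-/- arrays 6 to 8. No source used here names the BeadChip of an array, so what the sets are is not known. Inside the first set *Cd40* differed by 1.24 and *Cd274* by 1.13 on the log2 scale between genotypes, with no overlap. Inside the second set the differences were -0.03 and 0.01, and the genotypes overlapped. In macrophages the *Cd40* reference probe likewise differed by 0.66 in the third set with no overlap, and by -0.22 in the fourth, where the genotypes overlapped. On the *Cd40* probes ILMN_2502136 and ILMN_2503129 the genotypes overlapped in the third set too, with differences of 0.90 and 0.41. The difference between the sets was not itself tested.

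For *Pdcd1lg2* and *Havcr2* ILMN_2721929 the genotypes lay apart in both monocyte sets, although the difference was larger in the first. In monocytes *Pdcd1lg2* was higher in *Mbd2*-/- cells by 1.52 in the first set and 0.66 in the second on the log2 scale, and *Havcr2* ILMN_2721929 by 0.68 and 0.39, with no overlap in either set. In macrophages *Pdcd1lg2* was higher by 1.33 in the third set and 0.87 in the fourth, again with no overlap. On the other *Havcr2* probe, ILMN_2909597, the monocyte differences were 0.38 and 0.32, with overlap in the second set. Its macrophage differences were -0.26 in the third set, with no overlap, and 0.07 in the fourth, with overlap. With the set as a fixed block, a setting chosen after seeing the data, *Pdcd1lg2* passed in monocytes (log2 difference 1.09, adjusted p = 0.0216 in limma) and macrophages (1.102, adjusted p = 0.0148). So did *Havcr2* ILMN_2721929 in monocytes (0.53, adjusted p = 0.0232). The *Cd86* probe ILMN_1216386 differed in macrophages by 2.58 in the third set and 0.62 in the fourth, where the genotypes overlapped. WT cDC1 arrays lay in the first and second sets and *Mbd2*-/- cDC1 arrays in other sets, so for cDC1s set and genotype cannot be told apart.

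**Figure D3:**
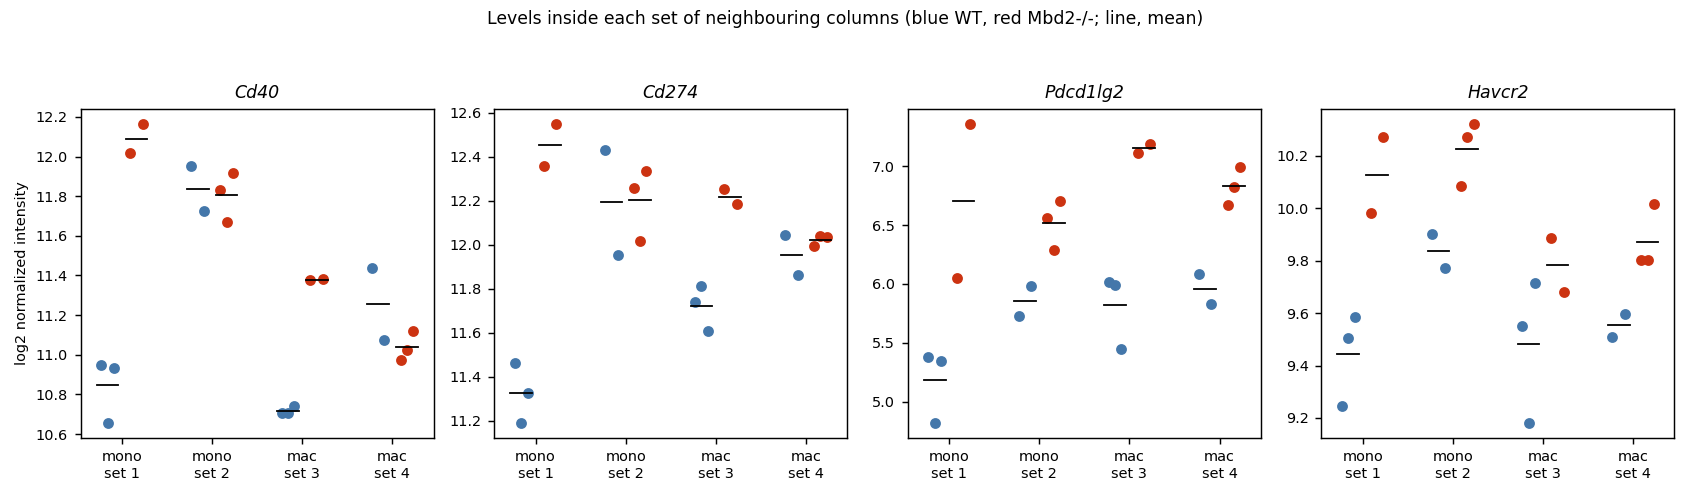
Log2 normalized intensity of *Cd40* (ILMN_3115796), *Cd274*, *Pdcd1lg2* and *Havcr2* (ILMN_2721929) on each monocyte and macrophage array, split by set of 6 neighbouring columns of the deposited table. Points are arrays and lines are means. *Cd40* and *Cd274* differ between genotypes in monocyte set 1 and not in set 2, and *Pdcd1lg2* differs in all 4 sets.

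*Tnfsf9* did not pass in any cell type by genotype, with log2 differences of 0.18, 0.00 and -0.38 in monocytes, macrophages and cDC1s. *Cd83* was lower in *Mbd2*-/- macrophages. Its log2 level was 13.10, 13.05, 13.06, 13.27 and 13.25 on the WT arrays and 12.80, 12.73, 12.94, 12.73 and 12.78 on the *Mbd2*-/- arrays. The groups did not overlap, and they differed in both column sets, by -0.32 and -0.44. The log2 difference of -0.35 was small, a 1.28-fold fall (SE 0.10, adjusted p = 0.0413 in limma), and it lost its call without 10 of the 25 arrays, with an adjusted p of up to 0.102. It also lost its call under median scaling, under cyclic loess, where the log2 difference was -0.23, with macrophages fitted alone and with no filter on dim probes (adjusted p of 0.0645 to 0.429 in limma). In cDC1s *Cd83* differed by -0.34 and did not pass (adjusted p = 0.147 in limma).

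Cell types were compared with both genotypes weighted equally. Of the 18 probes tested, 1 was higher and 7 lower in macrophages than in monocytes, against 20.8% and 18.1% of all probes. Of 19 tested, 4 were higher and 10 lower in cDC1s than in monocytes, against 27.6% and 26.0%, and 3 were higher and 7 lower in cDC1s than in macrophages, against 27.4% and 25.7%. Under median scaling the cDC1 counts were 2 higher and 12 lower against monocytes and 2 higher and 13 lower against macrophages, with 23.3% and 21.7% of all calls higher in place of 51.5% and 51.6%.

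*Havcr2* was highest in cDC1s. The reference probe was at a log2 level of 10.57 to 11.43 on the 5 cDC1 arrays, 9.34 to 10.39 on the 10 monocyte arrays and 9.59 to 10.11 on the 10 macrophage arrays. cDC1s did not overlap with either, with log2 differences of 0.99 over monocytes and 1.18 over macrophages (adjusted p = 1.31e-07 and 8.65e-09 in limma). Under median scaling the reference probe no longer passed against monocytes (log2 difference 0.36), while the second probe did in all 12 alternatives. Macrophages differed from monocytes by -0.19 on the reference probe, which did not pass, and by -0.22 on the second probe, which did (adjusted p = 0.0427 in limma). T cell and NK cell markers were also higher in cDC1s, with a summed log2 level of 8.69 to 11.38 against 8.14 to 8.90 in monocytes and 8.29 to 9.03 in macrophages. All 4 marker genes tested against monocytes were higher, and 4 of 5 against macrophages with 1 lower. T cells can carry TIM-3 too, and the part of these markers in the *Havcr2* level was not tested. Its partner *Lgals9* ran the other way. On ILMN_2752873 the cDC1 arrays stood at a log2 level of 7.79 to 8.17, below all monocyte arrays (9.20 to 9.89) and macrophage arrays (8.87 to 9.89), with log2 differences of -1.68 and -1.52 (adjusted p = 2.96e-10 and 1.77e-09 in limma).

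The PD-1 ligands also parted. *Cd274* was lower in cDC1s by -1.04 than in monocytes and by -1.01 than in macrophages on the log2 scale (adjusted p = 5.05e-05 and 7.70e-05 in limma), and the latter did not differ from each other (-0.03, 95% interval -0.34 to 0.28). *Pdcd1lg2* was higher in cDC1s by 1.04 than in monocytes (adjusted p = 0.000229 in limma) and by 0.65 than in macrophages (adjusted p = 0.0133). With only *Mbd2*-/- arrays neither *Pdcd1lg2* difference passed, at 0.66 and 0.29. Under median scaling the difference to macrophages was 0.22 and did not pass, nor did it pass without cDC1 array 26 or 30.

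*Cd40* had the order monocytes, macrophages, cDC1s. On the reference probe macrophages were lower than monocytes by -0.53 (adjusted p = 0.0155 in limma), and cDC1s were lower than macrophages by -1.10 (adjusted p = 0.000112). Between cDC1s and macrophages ILMN_2503129 also passed, at -0.99 (adjusted p = 0.00217 in limma). There ILMN_2502136 and ILMN_2496288, at -0.60 and -0.33, did not pass. With WT arrays only, none of the 4 *Cd40* probes passed between macrophages and monocytes (adjusted p = 0.112 to 0.480 in limma), with -0.31 on the reference probe. *Cd80* ILMN_2877958 was lower in macrophages than in monocytes by -0.85 (adjusted p = 0.00374 in limma). In cDC1s it did not pass, at -0.29 against monocytes and 0.56 against macrophages. The dim *Cd80* probe, ILMN_2770381, passed as lower in cDC1s, at -0.52 and -0.47 (adjusted p = 7.5e-05 and 0.000233 in limma). *Tnfsf9* fell from monocytes to macrophages by -0.67 and differed by -1.18 between cDC1s and monocytes on the log2 scale (adjusted p = 0.00922 and 0.000299 in limma). With WT arrays only, these *Tnfsf9* differences were -0.58 and -0.90 and did not pass (adjusted p = 0.140 and 0.0622 in limma). *Cd83* was higher in macrophages than in monocytes by 0.45 on the log2 scale with no overlap (adjusted p = 2.3e-05 in limma). Under median scaling that *Cd83* difference was 0.32 and did not pass (adjusted p = 0.0729 in limma). The *Cd83* difference of 0.33 between cDC1s and monocytes turned to -0.13 under median scaling. The bright *Cd86* probes and *Icosl* passed in no cell type comparison of the main fit. Under median scaling both bright *Cd86* probes passed as lower in cDC1s (adjusted p of at most 0.00796 in limma). Their log2 differences were then -0.85 and -0.74 against monocytes and -0.77 and -0.74 against macrophages. With *Mbd2*-/- arrays only, *Icosl* passed as higher in cDC1s, by 0.61 than in monocytes and 0.58 than in macrophages (adjusted p = 0.00281 and 0.00425 in limma).

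**Figure D4:**
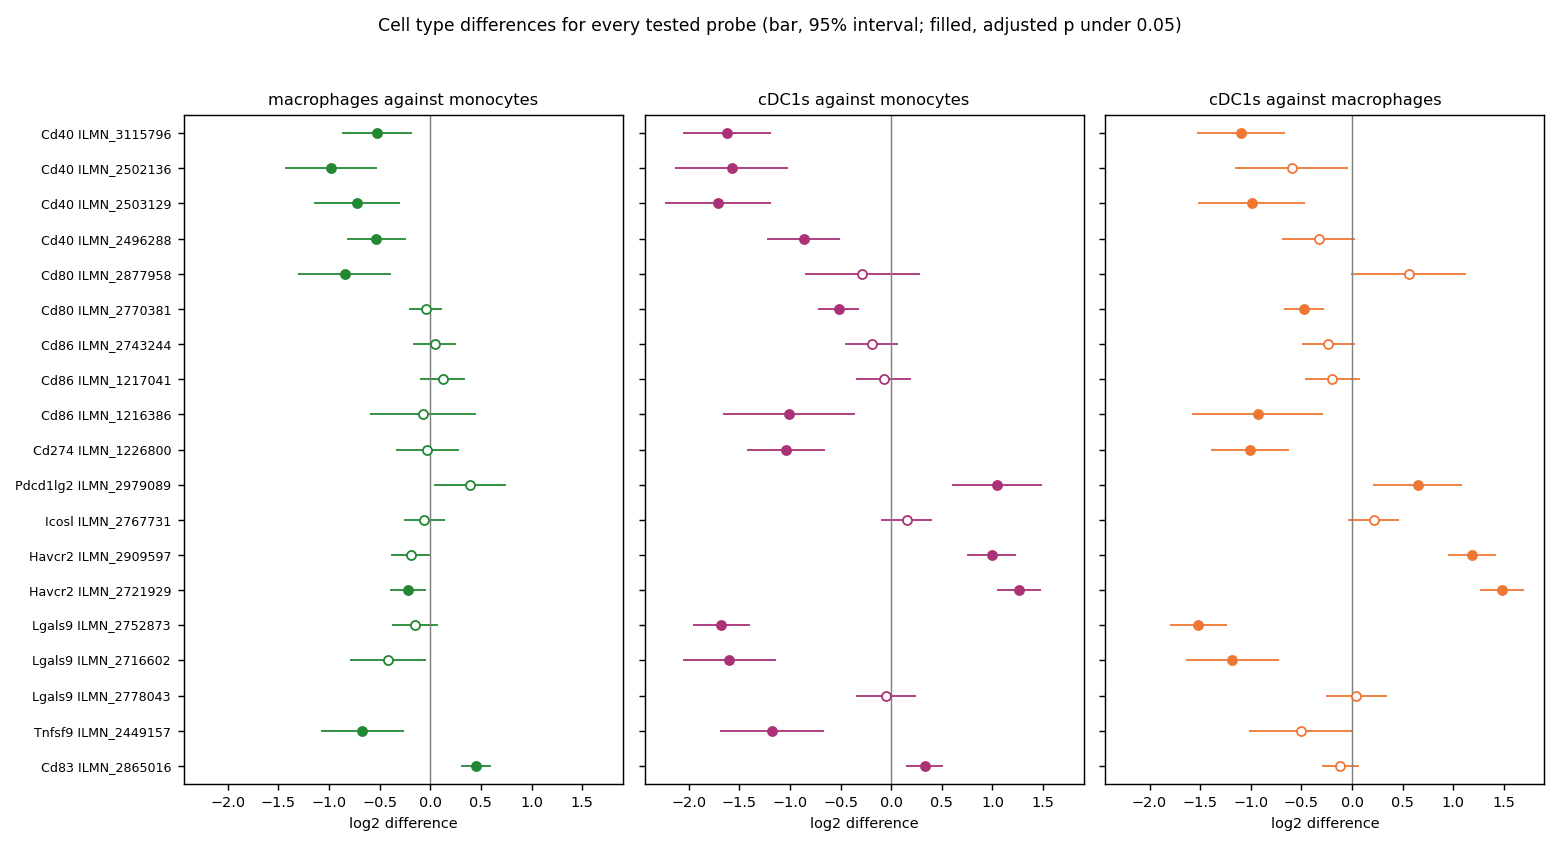
Log2 difference between cell types for each tested member probe, with both genotypes weighted equally. Points are estimates, bars are 95% intervals, and filled points have an adjusted p under 0.05. *Havcr2* and *Pdcd1lg2* lie right of 0 in both cDC1 panels, and *Cd40*, *Cd274* and the bright *Lgals9* probes lie left.

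The genes around the members were counted from lists of the same pathways, a gene being counted if any of its probes passed. Of all probes tested, 0.871% were higher and 0.982% lower in *Mbd2*-/- monocytes. In macrophages these shares were 3.15% and 2.71%, and in cDC1s 3.45% and 3.27%. The small counts that follow name genes and are no result about a list. Of the dendritic cell maturation list, 1 of 7 genes tested rose in *Mbd2*-/- monocytes and in *Mbd2*-/- macrophages. It was *Il15ra*, the receptor chain that presents IL-15, with log2 differences of 1.17 and 0.84 on its reference probe (adjusted p = 0.0116 and 0.045 in limma). In *Mbd2*-/- cDC1s 1 of 8 interferon-gamma axis genes fell, *Jak2*, a kinase bound to the interferon-gamma receptor, which fell by 0.94 on the log2 scale (adjusted p = 0.0137 in limma).

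Among B7 relatives in macrophages, 1 of 11 genes rose, *Btnl2*, by 0.43 on the log2 scale (adjusted p = 0.033 in limma). There 1 fell, *Cd276*, another B7 family member, with a log2 difference of -0.79 (adjusted p = 0.0152 in limma). Of 4 TNF superfamily ligands tested there 1 fell, *Tnfsf14*, a ligand of HVEM, at -0.94 (adjusted p = 0.0253 in limma). In cDC1s 2 of 9 B7 relatives rose and 1 fell. *Nectin2* rose by 0.86 on its reference probe (adjusted p = 0.0385 in limma). *Sirpa*, an inhibitory receptor for CD47, rose from a mean log2 level of 9.01 to 10.01, with means of 12.77 to 13.19 in the other 4 groups, and the macrophage marker sum above moved with it. *Pvr*, a ligand of TIGIT and CD226, fell by 1.70 on 1 probe that is not its brightest (adjusted p = 0.00662 in limma). Of 7 receptors and ligands of the T cell side, 1 rose, *Tnfrsf4*, at 1.497 (adjusted p = 0.0474 in limma). Among TIM-3 partners and galectins, *Timd4*, a phosphatidylserine receptor of the TIM family, was lower in *Mbd2*-/- cDC1s at -1.38 (adjusted p = 0.0141 in limma), the only one of 6 genes that passed. In macrophages 1 of 5 genes of that list fell, *Lgals1*, at -0.64 (adjusted p = 0.015 in limma). In the CD40 and NF-kappaB list 1 of 14 genes passed in monocytes, *Map3k14*, the kinase of the alternative pathway, at -0.81 (adjusted p = 0.006 in limma), and 1 in cDC1s, *Rel*, an NF-kappaB subunit, at -0.63 (adjusted p = 0.0123).

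Markers of other cell types moved with some of these groups. The summed log2 level of B cell and plasma cell markers was 9.47 to 10.21 in *Mbd2*-/- and 10.32 to 10.74 in WT monocytes, with 2 of 7 tested genes lower. Of 3 cDC2 markers 1 was lower there, *Cd209a*, at -1.97 (adjusted p = 0.000627 in limma). In *Mbd2*-/- cDC1s *Clec10a* was higher by 1.20 (adjusted p = 0.022 in limma), while *Cd209a* differed by -0.49 and did not pass. The monocyte marker sum in cDC1s was 12.96 to 13.29 on *Mbd2*-/- arrays against 12.74 and 12.78 in WT. The part of these markers in the results was not tested. The summed macrophage marker level in monocytes overlapped between genotypes, at 13.51 to 13.66 in WT and 13.39 to 13.79 in *Mbd2*-/- arrays.

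By pattern over the 25 arrays, with cell types and genotypes pooled and no test, the gene most like *Cd40* was *Gbp2* (Pearson r = 0.961), the gene most like *Lgals9* was *Lilrb4* (0.964) and the gene most like *Havcr2* was *Prpf18* (0.915). The gene most like *Pdcd1lg2* was *Insl6* (0.855), which lies in the same stretch of chromosome 19, between *Jak2* and *Cd274*. Arrays of one cell type share its whole profile, so such correlations are high for many genes.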

How the data were processed

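RNA of sorted colon cells was hybridised to Illumina MouseWG-6 BeadChips. The deposited values were raw probe intensity, per the file headers, with bead counts, a standard error and a detection p-value for each probe, which the authors took from the scanner software and deposited without normalization. The submitters' processing notes name lumi and limma, and versions are not given in the sources used here. Of the signal columns, 3 matched no sample label and were not used.

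Here the intensities of 25 arrays were background corrected by normexp with 936 negative controls and an offset of 16, quantile normalized and put on the log2 scale (R 4.3.3, limma 3.58.1). One limma fit of 6 groups gave 9 contrasts, all two-sided. A probe entered a contrast if its detection p was under 0.05 on a number of arrays no lower than the size of the smaller group, and passed at a Benjamini-Hochberg adjusted p under 0.05 over all probes entered. The reference probe of a gene is its brightest tested probe. From each pathway list, up to 3 genes per genotype contrast were named, those with the largest change among genes that passed, and by pattern the genes with the highest r. Part of the results of the interferon-gamma list is not reported here. The fit was tested on simulated data. The members and lists were chosen with earlier results of these data known. Bead number and the number of arrays limit the precision. Figures were drawn with matplotlib 3.10.9.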

Additional observations from a re-analysis of the deposited data

Results flagged for a closer look

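Of 76 sets of 4 or more arrays checked for a single array far from its group, 5 had one, and chance alone gives about 1 in 20. *Mbd2*-/- macrophage array 20 was high for 2 *Cd40* probes, at a log2 level of 10.47 on ILMN_2502136 (the others 9.26 to 9.56) and 9.10 on ILMN_2503129 (8.39 to 8.54). For *Lgals9*, WT macrophage array 12 was low at 7.12 on ILMN_2716602 (8.56 to 9.04), and WT macrophage array 15 was high at 4.68 on ILMN_2778043 (4.18 to 4.32), a probe mostly not detected. For *Cd83*, WT monocyte array 3 stood at 12.56, below others that span only 12.61 to 12.62.

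The genotype effect differed between cell types for 2 genes by the test of the difference itself. In cDC1s minus monocytes 2 of 18 member probes passed, where 1.12% of all probes did. In cDC1s minus macrophages 2 of 18 passed, where 8.79% of all probes did. For cDC1s column set and genotype cannot be told apart. For *Havcr2* the effect in cDC1s minus that in monocytes was -0.99 on ILMN_2909597 and -1.50 on ILMN_2721929, and in cDC1s minus macrophages it was -1.24 on ILMN_2721929. For *Cd86* the effect in cDC1s minus macrophages was -2.04 on ILMN_1216386, the probe that did not follow the other *Cd86* probes. This *Cd86* call was lost under cyclic loess, with no filter on dim probes and with array weights (adjusted p = 0.057, 0.102 and 0.292 in limma). Under median scaling neither *Havcr2* probe passed in cDC1s minus monocytes (adjusted p = 0.133 and 0.397).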

How the results depend on the processing

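Counts of member probes that passed are given against 2 in monocytes, 3 in macrophages and 2 in cDC1s by genotype, 8 in macrophages against monocytes, 10 in cDC1s against macrophages, and 2 in each genotype effect of cDC1s minus another cell type. Under median scaling the counts were 0, 1 and 1 by genotype and 0 for cDC1s minus monocytes. It moved the median of all probes by genotype to -0.26 in monocytes and -0.37 in cDC1s on the log2 scale, and the share of higher calls from 47.0%, 53.8% and 51.4% to 31.7%, 77.3% and 2.58%, and cyclic loess moved that of macrophages to 64.5%. Cyclic loess and no filter on dim probes gave 2 each in macrophages by genotype, and 1 each in cDC1s and in both cDC1 genotype effects. With each cell type fitted alone, 1 passed in macrophages and 0 in cDC1s. Array weights gave 7 in monocytes, 0 in cDC1s and 1 in both cDC1 genotype effects. A further minimum of 1 on the absolute log2 change left 1 in monocytes, 0 in cDC1s, 0 in macrophages against monocytes, 6 in cDC1s against macrophages and 1 in cDC1s minus monocytes. With an adjusted p under 0.01 as well, these were 0, 0, 0, 6 and 1, with 0 in macrophages by genotype and 1 in cDC1s minus macrophages. WT arrays alone gave 2 in macrophages against monocytes. Column sets as a random block, chosen after seeing the data, gave 1 in cDC1s. Without each array in turn the counts ranged from 1 to 6 in monocytes (lowest without WT array 2 or *Mbd2*-/- array 10, highest without WT array 4), 1 to 3 in macrophages and cDC1s, 7 to 9, 13 to 15 and 9 to 12 between cell types, and 0 to 0, 1 to 3 and 1 to 4 for the differences of genotype effects. Of 5938 values of single probes under these settings, 5579 kept direction and side of the threshold, 167 lost a call, 57 gained one, 133 changed sign without a call and 2 reversed: *Cd83* to -0.13 in cDC1s against monocytes under median scaling, and *Cd86* ILMN_1216386 to 0.086 in cDC1s against macrophages with WT arrays. The causes were not tested. No paired analysis was possible because no array number is shared between groups, and a BeadChip block was not run because no source names the chips.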
